A study of Mus musculus with 6 samples.

Results

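Semaphorins are secreted or membrane-bound guidance proteins, plexins are their main signalling receptors, and neuropilins are co-receptors that bind class 3 semaphorins and members of the vascular endothelial growth factor (VEGF) family. Together they steer growing axons, blood vessels and migrating immune cells. A bound plexin acts on small GTPases and actin regulators, and class 3 semaphorins commonly repel axons and endothelial cells. In fat, such signals can reach the sympathetic nerve fibres and the dense capillary network of the tissue.

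The family was defined by gene symbol, as every semaphorin (Sema3a to Sema7a), every plexin of the A, B, C and D groups, both neuropilins (Nrp1 and Nrp2) and the 2 plexin domain containing genes Plxdc1 and Plxdc2. This gave 33 genes out of 24016 in the table: 20 semaphorins, 9 plexins, 2 neuropilins and 2 Plxdc genes. Messenger RNA was measured by polyA RNA sequencing of brown fat, the depot that burns fuel for heat, from C57BL6 mice. The genotype label AdIl17rc KO stands on 3 libraries and WT on the other 3. From the series title, the knocked-out gene codes for the interleukin-17 receptor subunit IL-17RC and the cells meant are adipocytes. The sources used here name no Cre driver, age or treatment for any group. Separate animals are not stated either, and the p-values below cover only sample-to-sample spread, which may be technical.

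The authors deposited FPKM, that is, fragments per kilobase of transcript relative to the megafragments mapped. Depth is not part of the table. The step that 1 fragment makes in low genes put it at roughly 31.1 to 36.0 megafragments in KO and 32.9 to 38.5 megafragments in WT libraries. Il17rc, the targeted gene, was at 1.32, 0.619 and 0.530 FPKM in KO libraries 1, 2 and 3, against 3.21, 2.28 and 2.02 FPKM in WT libraries 1, 2 and 3 (log2 fold change -1.21 ± 0.25 SE, n = 3 each, limma adjusted p = 0.151). Most genes had lower values in KO: the median log2 fold change of the 10864 genes at a mean of at least 0.5 FPKM was -0.29. A second value, called scaled, comes from the same model once median-of-ratios factors have brought the median gene close to 0. Brown adipocyte markers were high in every library, with Ucp1 at 2534 to 2979 FPKM in KO and 1976 to 2577 FPKM in WT.

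Of the 33 genes, 16 reached the mean of 0.5 FPKM and were tested: 9 semaphorins, 4 plexins, both neuropilins and Plxdc2. Mean values were lower in KO for all 16, from the ligand genes Sema3f and Sema7a to the receptor genes Plxna1, Plxna2 and Plxnd1 and the co-receptor gene Nrp2. The KO mean of Sema3f was 0.444 of the WT mean. None passed an adjusted p of 0.05 in either direction by limma over all genes, where 0.0092% of genes were called lower and 0.0092% higher. At an unadjusted p under 0.05 the fit placed 8 of the 16 lower in KO, against 24.8% of all tested genes, and 0 higher, against 1.01%. In 8 of 16 every KO library lay below every WT library, against 31.7% of all genes, and in 0 above, against 1.25%. After scaling the same threshold gave 7 of 16 lower, against 8.61% of all tested genes, and 0 higher, against 9.05%. The groups then did not overlap for 7, all lower in KO, against 12.5% of all genes that were lower without overlap and 12.9% that were higher. All 16 had a negative fold change as deposited, where 87.6% of all genes did, and 15 after scaling, where 50.4% did. Their median log2 fold change was -0.57, against -0.29 for all tested genes, and -0.27 after scaling, against -0.0017. The median GC content of the 16 transcripts was 56.6%, against 49.7% for all tested genes, and scaled fold changes followed GC content across all genes (Spearman rho -0.44, a description over genes that are not independent). With a GC and length correction added to the scaling, the median of the 16 was -0.10 and 4 were lower at an unadjusted p under 0.05, against 6.92% of all genes. They were Sema3f, Sema6d, Plxna1 and Nrp2, 4 of 16 lay below WT without overlap, against 10.3% of all genes, and 12 of 16 were below 0, against 51.1%.

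**Figure D1:**
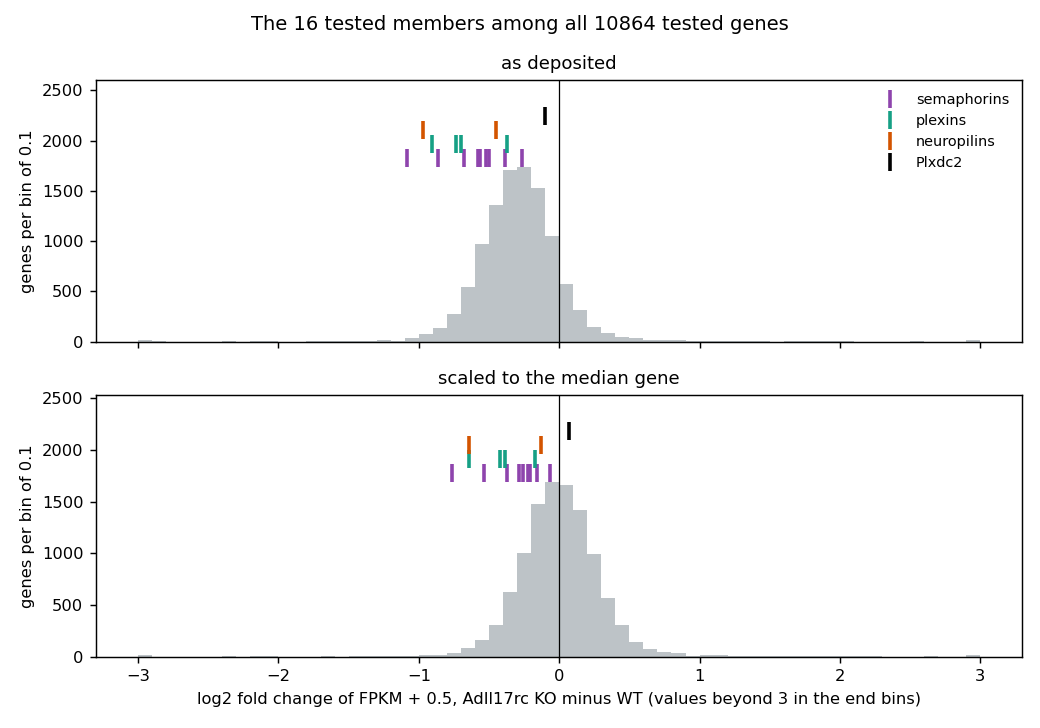
Histogram of log2 fold changes (AdIl17rc KO minus WT, FPKM + 0.5) of all 10864 tested genes in bins of 0.1, as deposited (top) and scaled to the median gene (bottom); ticks mark the 9 semaphorins, 4 plexins, 2 neuropilins and Plxdc2. The ticks run from -1.09 to -0.10 as deposited, and after scaling 15 of 16 lie below 0.

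To show the regulatory DNA next to genes whose values were low together in KO, the RefSeq promoter windows (GRCm38.p6, from 250 bases before to 50 after the annotated start, 5′ to 3′ on the gene's strand) are given for Sema7a, Nrp2 and Plxnd1, with that of Nrp1, whose groups overlapped after scaling. Capitals mark GC boxes, GGGCGG on either strand.
Sema7a, chr9:57939862-57940161, plus strand: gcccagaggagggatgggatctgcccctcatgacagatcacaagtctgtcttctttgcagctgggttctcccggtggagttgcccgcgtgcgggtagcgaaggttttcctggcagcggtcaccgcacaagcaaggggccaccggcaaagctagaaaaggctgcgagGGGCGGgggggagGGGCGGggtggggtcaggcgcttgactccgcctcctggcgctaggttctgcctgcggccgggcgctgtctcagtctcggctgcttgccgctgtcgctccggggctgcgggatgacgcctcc
Nrp2, chr1:62703067-62703366, plus strand: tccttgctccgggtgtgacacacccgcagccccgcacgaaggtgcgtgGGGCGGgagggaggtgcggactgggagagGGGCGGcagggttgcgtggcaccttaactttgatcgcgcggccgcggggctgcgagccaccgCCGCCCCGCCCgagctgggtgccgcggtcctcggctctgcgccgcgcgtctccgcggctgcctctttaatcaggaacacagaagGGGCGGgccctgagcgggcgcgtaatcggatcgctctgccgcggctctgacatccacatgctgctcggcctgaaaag
Plxnd1, chr6:115994956-115995255, minus strand: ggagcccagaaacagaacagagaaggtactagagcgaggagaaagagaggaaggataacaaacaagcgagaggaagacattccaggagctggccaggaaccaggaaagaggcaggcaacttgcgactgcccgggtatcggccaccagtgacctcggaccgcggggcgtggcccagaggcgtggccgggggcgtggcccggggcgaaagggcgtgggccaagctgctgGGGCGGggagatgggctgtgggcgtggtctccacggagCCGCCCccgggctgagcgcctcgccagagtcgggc
Nrp1, chr8:128358823-128359122, plus strand: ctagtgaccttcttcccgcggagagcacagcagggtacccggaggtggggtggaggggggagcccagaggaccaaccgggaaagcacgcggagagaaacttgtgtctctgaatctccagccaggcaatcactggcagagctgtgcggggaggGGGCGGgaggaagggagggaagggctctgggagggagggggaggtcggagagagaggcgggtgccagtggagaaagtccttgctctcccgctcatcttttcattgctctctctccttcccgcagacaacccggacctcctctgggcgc
The Nrp2 window held 5 GC boxes, of which 2 overlap by 1 base, the Sema7a and Plxnd1 windows held 2 each, and the Nrp1 window held 1. Other members did not follow this order. The windows of Plxnb2 held 3 and 4 and those of Sema4c 3 and 2, though the groups overlapped for both genes. Those of Sema6d, whose groups did not overlap, held 2 and 0. A link between GC boxes and the KO values was not tested. A window was available for 26 of the 33 genes and for 12 of the 16 tested ones, Sema3f and Plxna1 not among them. Of the 20 windows of tested members 18 held a GC box, against 35.7% of all 32851 promoter windows. Their median GC content was 64.2%, against 52.7% for all windows. The comparison with all windows is an unlike one. Those windows were not limited to genes that reached the minimum of 0.5 FPKM, and a gene with several starts counts several times. Whether these members differ from other genes above the minimum was not tested. None of the 20 held a TATA box (TATAAA, 13.6% of all windows), a cAMP response element (TGACGTCA, 1.79%) or the C/EBP sequence TTGCGCAA (0.183%). None held the fixed kappaB sequence that was searched (0.155%), and other forms of the kappaB site were not searched. At so low a share, its absence from 20 windows says little about kappaB sites. Each sequence was searched on both strands, which says only that these letters are not in these windows.

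Among the ligands, the secreted class 3 semaphorins were led by Sema3f, which binds neuropilin-2 and repels axons and endothelial cells. Sema3f was at 12.7, 8.05 and 9.18 FPKM in KO libraries 1, 2 and 3, against 33.1, 17.9 and 16.5 FPKM in WT libraries 1, 2 and 3. Every KO library lay below every WT library, and WT library 1 stood far above the other WT libraries. The KO mean was 9.97 ± 2.41 against a WT mean of 22.5 ± 9.22 FPKM (SD, n = 3 each), and the log2 fold change, -1.09 ± 0.28 (SE), was the most negative of the 16. It was -0.77 scaled and -0.58 with the GC and length correction, and did not pass over all genes by limma (adjusted p = 0.151, 0.233 and 0.299). Permuting the 6 libraries (exact, two-sided) gave p = 0.1, which is the floor for 3 against 3, and the same holds for each of the 8 members without overlap. Without WT library 1 the log2 fold change of Sema3f was -0.78.

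Sema3g, a class 3 ligand known from endothelial cells that also signals through neuropilin-2, was at 4.77, 2.37 and 2.34 FPKM in KO against 6.83, 3.61 and 4.22 FPKM in WT libraries. KO library 1 lay inside the WT range, so the groups overlapped (log2 fold change -0.58 ± 0.30 SE, limma adjusted p = 0.231). It was -0.28 scaled and -0.085 with the GC and length correction, and as deposited -0.33 without WT library 1 and -0.87 without KO library 1. Sema3b, another secreted ligand, was at 0.721 ± 0.265 FPKM in KO and 0.962 ± 0.269 FPKM in WT (SD, n = 3 each), with a log2 fold change of -0.27 that was 0.096 with the GC and length correction. The other secreted members lay under the minimum. Sema3c averaged 0.319 FPKM in KO and 0.296 in WT, while Sema3a, Sema3d and Sema3e were all under 0.05 FPKM in every library. Sema3a is the classical repellent of sensory and sympathetic axons and a ligand of neuropilin-1, and Sema3e is the ligand of plexin-D1, and both receptor genes were measured at far higher levels. Sema3a rested on at most about 3 fragments per library.

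Sema7a had the highest level of any semaphorin. It is anchored to the membrane by a lipid and binds integrin beta 1 and plexin-C1. Its level was 24.5, 15.2 and 20.4 FPKM in KO libraries 1, 2 and 3, against 54.2, 30.8 and 28.5 FPKM in WT libraries 1, 2 and 3. The groups did not overlap, and WT library 1 was again the highest. The means were 20.04 ± 4.67 in KO and 37.8 ± 14.2 FPKM in WT (SD, n = 3 each), and the log2 difference was -0.87 ± 0.27 (SE; limma adjusted p = 0.160), -0.54 scaled and -0.37 with the GC and length correction. Of its receptors, Plxnc1 was at 0.128 to 0.164 FPKM in KO and 0.114 to 0.248 in WT, while the integrin gene Itgb1 was at 66.3 to 67.5 FPKM in KO and 69.0 to 88.0 in WT (log2 fold change -0.20, 0.13 scaled, where its sign turned).

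Transmembrane semaphorins of class 6 act both as ligands and as receptors, and Sema6d, which binds plexin-A1, had the smallest p as deposited. After scaling, with or without the GC and length correction, Sema3f had the smallest. The Sema6d values were 5.02, 3.66 and 4.13 FPKM in KO, against 7.87, 6.93 and 6.49 FPKM in WT libraries 1, 2 and 3. The 2 groups were tight and separate, 4.27 ± 0.689 in KO and 7.10 ± 0.704 FPKM in WT (SD, n = 3 each). The log2 fold change was -0.68 ± 0.16 (SE; unadjusted p = 0.0029, adjusted p = 0.151 by limma), -0.37 scaled and -0.26 with the GC and length correction. Sema6b was at 2.06 ± 0.498 FPKM in KO and 3.25 ± 1.48 in WT, with overlapping groups. Its log2 fold change of -0.50 was -0.22 scaled, 0.022 with the GC and length correction and -0.19 as deposited without WT library 1. Sema6a, below the minimum, was at 0.316, 0.253 and 0.186 FPKM in KO against 0.576, 0.561 and 0.350 FPKM in WT, without overlap.

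Sema6c was listed at 0.0851, 0.0725 and 0.0146 FPKM in KO libraries 1, 2 and 3 and at 0.0321, 0.0138 and 0.0443 FPKM in WT libraries 1, 2 and 3, some 3 to 13 fragments per library. KO libraries 1 and 2 and WT library 3 had its highest values in their groups, and also the most skeletal muscle transcript. The 10 muscle markers summed to 269.6, 479.8 and 1.69 FPKM in KO libraries 1, 2 and 3, against 3.05, 2.37 and 35.9 FPKM in WT libraries 1, 2 and 3. The part of muscle in the Sema6c values was not tested.

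Class 4 semaphorins, transmembrane ligands mostly of B plexins with roles in immune and vascular cells, were represented by 3 tested genes, each with a lower mean in KO and overlapping groups. Sema4c, a ligand of plexin-B2, was at 9.69, 4.36 and 4.05 FPKM in KO against 12.5, 7.47 and 5.92 FPKM in WT libraries. Sema4b was at 7.93, 3.82 and 3.14 FPKM in KO against 9.93, 5.22 and 6.68 FPKM in WT. In both genes KO library 1 lay inside the WT range, and KO libraries 2 and 3 lay below all of them. Sema4a averaged 0.902 ± 0.277 FPKM in KO and 1.35 ± 0.483 in WT (SD, n = 3 each). The 3 log2 fold changes ran from -0.56 to -0.39 (limma adjusted p from 0.276 to 0.327) and from -0.26 to -0.16 scaled. With the GC and length correction they were near 0, at -0.075 for Sema4b, -0.020 for Sema4c and -0.013 for Sema4a. Without WT library 1 the deposited values were -0.33 for Sema4b, -0.23 for Sema4c and -0.20 for Sema4a, and without KO library 1 those of Sema4b and Sema4c were -0.93 and -0.89. Without KO library 3 Sema4b and Sema4c were at -0.32 and -0.31. Sema4d, the ligand of plexin-B1 and the highest of the untested members at a mean of 0.417 FPKM, was at 0.320 to 0.374 FPKM in KO and 0.423 to 0.543 in WT, and overlapped after scaling.

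**Figure D2:**
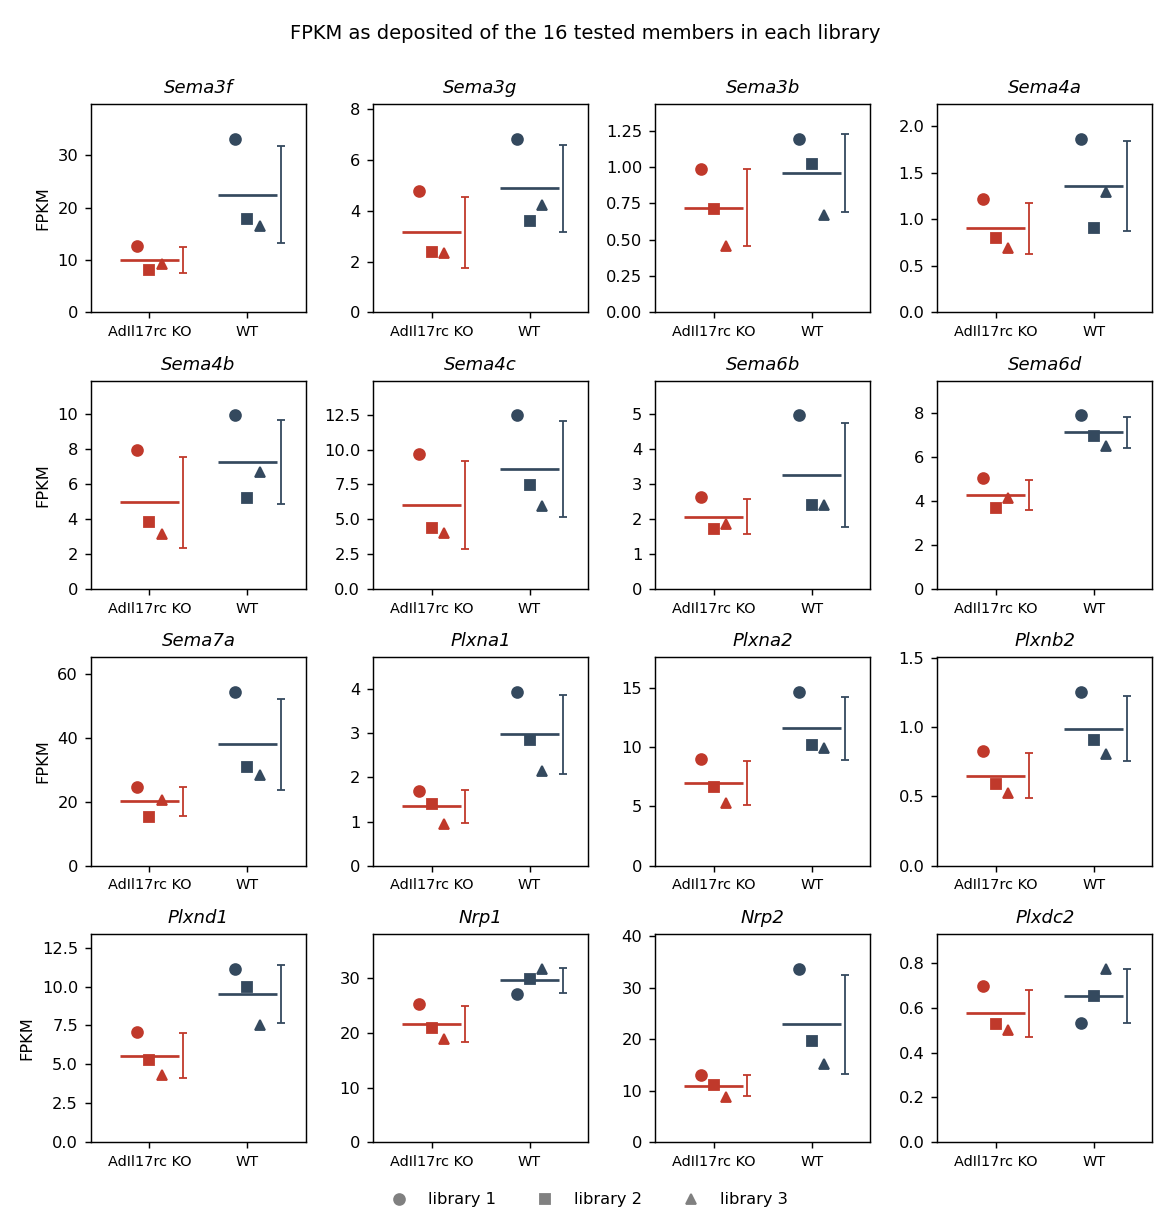
FPKM as deposited (y axes from 0, one scale per gene) of the 16 tested members in the AdIl17rc KO (left, red) and WT (right, dark) libraries; points are libraries 1 to 3, lines the group mean and bars ± SD (n = 3). For 8 genes, Sema3f, Sema6d, Sema7a, Plxna1, Plxna2, Plxnd1, Nrp1 and Nrp2, every KO point lies below every WT point.

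Among the receptors, plexin-A2 and plexin-D1 transcripts were the most abundant plexins. Plxna2, a receptor for class 6 semaphorins and, with neuropilins, class 3 semaphorins, was at 8.97, 6.67 and 5.29 FPKM in KO libraries 1, 2 and 3, against 14.6, 10.2 and 9.89 FPKM in WT libraries 1, 2 and 3. Plxnd1, an endothelial receptor that restrains vessel sprouting, was at 7.09, 5.31 and 4.29 FPKM in KO, against 11.2, 9.95 and 7.50 FPKM in WT. For both genes the groups did not overlap as deposited or after scaling. The log2 fold change of Plxna2 was -0.70 ± 0.23 (SE; limma adjusted p = 0.162), -0.39 scaled and -0.19 with the GC and length correction. That of Plxnd1 was -0.73 ± 0.22 (SE; limma adjusted p = 0.155), -0.43 scaled and -0.12 with the correction.

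Plxna1, the receptor of Sema6d, was lower in level but further apart between the groups: 1.69, 1.41 and 0.939 FPKM in KO libraries 1, 2 and 3, against 3.94, 2.84 and 2.15 FPKM in WT libraries 1, 2 and 3. The log2 fold change was -0.90 ± 0.23 (SE; limma adjusted p = 0.151), -0.64 scaled and -0.33 with the GC and length correction. Plxnb2, which binds class 4 semaphorins, was at 0.648 ± 0.163 FPKM in KO and 0.990 ± 0.234 in WT (SD, n = 3 each), with overlapping groups; its log2 fold change was -0.37, and 0.093 with the correction. The other 5 plexins lay under the minimum. Plxna3 was at 0.0960 to 0.215 FPKM in KO and 0.216 to 0.385 in WT, without overlap only as deposited, and the remaining Plxna4, Plxnb1, Plxnb3 and Plxnc1 had overlapping groups and lay below 0.25 FPKM in every library.

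The neuropilins were abundant. Nrp2, the co-receptor of Sema3f and of the lymphatic growth factor VEGF-C, was at 13.0, 11.1 and 8.84 FPKM in KO libraries 1, 2 and 3, against 33.7, 19.6 and 15.3 FPKM in WT libraries 1, 2 and 3. All KO values lay below all WT values, also after scaling. The means were 10.95 ± 2.06 in KO and 22.9 ± 9.64 FPKM in WT (SD, n = 3 each), and the log2 fold change was -0.97 ± 0.28 (SE; limma adjusted p = 0.155), -0.64 scaled and -0.48 with the GC and length correction. Without WT library 1 it was -0.65 as deposited and -0.45 scaled.

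Nrp1, the co-receptor of Sema3a and VEGF-A, was at 25.2, 20.8 and 18.8 FPKM in KO libraries 1, 2 and 3, against 27.2, 29.9 and 31.8 FPKM in WT libraries 1, 2 and 3. The groups did not overlap as deposited, and the log2 difference was -0.45 ± 0.16 (SE; limma adjusted p = 0.165). After scaling they did, with 25.2, 24.6 and 22.5 in KO against 20.5, 29.3 and 30.3 in WT, and the fold change was -0.13. WT library 1, the highest WT library for 14 of the other 15 tested members, was the lowest for Nrp1. The ratio of Nrp1 to Nrp2 within a library, which no scaling between libraries can alter, was 1.95, 1.88 and 2.13 in KO libraries 1, 2 and 3, against 0.807, 1.52 and 2.08 in WT libraries 1, 2 and 3. The KO ratios lay close together and overlapped the WT range at WT library 3 (exact two-sided permutation p = 0.3). Transcript GC content was 41.9% for Nrp1 and 51.1% for Nrp2, so a GC trend between libraries would not cancel in this ratio. Plxdc2, a transmembrane receptor for the factor PEDF, was at 0.575 ± 0.106 FPKM in KO and 0.654 ± 0.123 in WT, with a log2 fold change of -0.10 that was 0.071 scaled, and Plxdc1 was below 0.05 FPKM in every library.

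**Figure D3:**
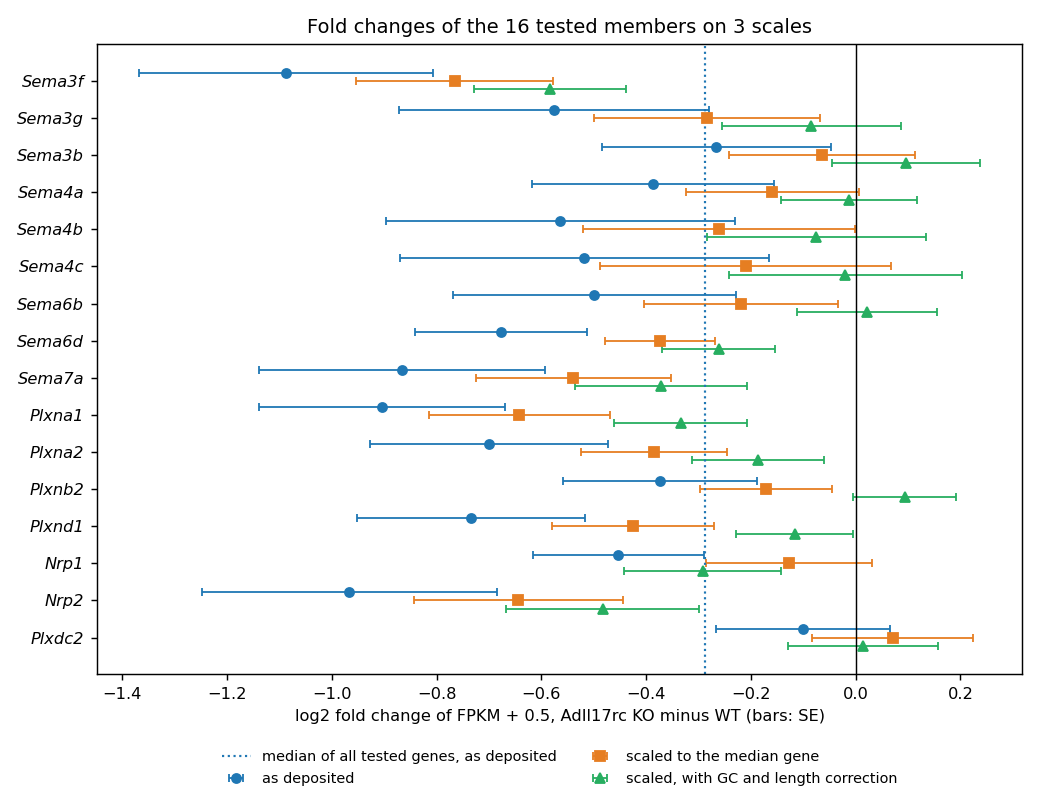
Log2 fold change (AdIl17rc KO minus WT, FPKM + 0.5) with its SE for each of the 16 tested members, as deposited (circles), scaled to the median gene (squares) and scaled with a GC and length correction (triangles); the dotted line is the median of all tested genes as deposited, -0.29. Each member moves toward 0 with scaling, except Plxdc2, which crosses it, and Nrp1 is the 1 member well below 0 that the further correction moves away from 0, to -0.29.

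By level, the order of the 4 leading members was Nrp1, Sema7a, Nrp2 and Sema3f by KO mean (21.6, 20.04, 10.95 and 9.97 FPKM) and Sema7a, Nrp1, Nrp2 and Sema3f by WT mean (37.8, 29.6, 22.9 and 22.5 FPKM). Neither Sema7a and Nrp1 nor Nrp2 and Sema3f were separated from each other beyond their SD in either group. The values of all 20 semaphorins summed to 71.0, 42.0 and 47.6 FPKM in KO libraries 1, 2 and 3, against 134.5, 78.1 and 74.4 FPKM in WT libraries 1, 2 and 3. The 9 plexins summed to 19.2, 14.5 and 11.4 FPKM in KO against 32.0, 24.7 and 20.9 FPKM in WT. Within both sums library 1 was the highest of its group.

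Shares within a family do not depend on scaling between libraries, and they set each member against its relatives. A GC trend that differs between libraries does not cancel in a share or a ratio. Transcript GC content was 57.3% for Plxna1 and 49.7% for Plxna2, and the part of GC content in these shares and ratios was not tested. Sema3f made up 18.3%, 19.8% and 19.9% of the summed FPKM of the 9 tested semaphorins in KO libraries 1, 2 and 3, against 25.0%, 23.4% and 22.7% in WT libraries 1, 2 and 3. Plxna1 made up 9.09%, 10.1% and 8.50% of the 4 tested plexins in KO, against 12.7%, 11.9% and 10.6% in WT. In both cases the groups did not overlap. Sema6b had the larger share in every KO library, 3.78% to 4.19% against 3.14% to 3.74% in WT, and so did Plxnb2, 4.23% to 4.72% against 3.79% to 4.05%. For the other 11 shares the groups overlapped, Sema7a at 35.3% to 44.1% in KO and 39.2% to 41.0% in WT among them. The ratio of Plxna2 to Plxna1 was 5.31, 4.74 and 5.64 in KO against 3.72, 3.59 and 4.60 in WT libraries 1, 2 and 3, without overlap (exact two-sided permutation p = 0.1). The ratio of Sema3f to its co-receptor gene Nrp2 was 0.978, 0.728 and 1.04 in KO against 0.982, 0.911 and 1.08 in WT (exact two-sided permutation p = 0.6), with overlapping ranges. These are 2 of 7 ratios computed, and the groups overlapped in the other 5 (exact permutation p from 0.2 to 0.7). With Benjamini-Hochberg adjustment over the 7 exact permutation tests, p was 0.42 for Plxna2 to Plxna1 and 0.7 for Sema3f to Nrp2.

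**Figure D4:**
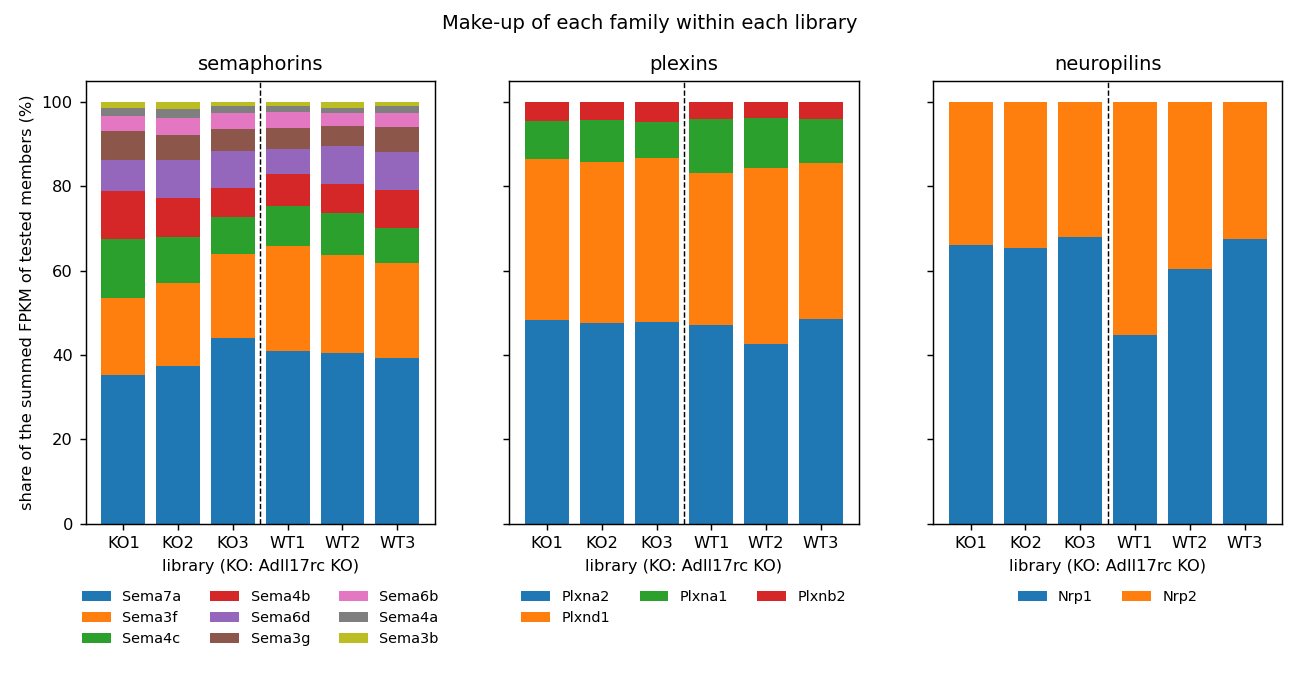
Share (%) of each tested member in the summed FPKM of the tested semaphorins, plexins and neuropilins, by library, with AdIl17rc KO libraries left of the dashed line and WT libraries right of it. The orange Sema3f segment is 18.3% to 19.9% in KO and 22.7% to 25.0% in WT, and Nrp2 is 32.0% to 34.7% of the neuropilins in KO and 32.4% to 55.3% in WT.

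Of the 17 members under the minimum, 13 had a lower and 4 a higher mean in KO. The 4 were Sema3a, Sema3c, Sema3e and Sema6c. The groups did not overlap for 4 of the 17, Sema3d, Sema4d, Sema6a and Plxna3, all lower in KO, against 9.83% of the 6631 genes under the minimum with a value above 0. After scaling 2 of them, Sema3d and Sema6a, were without overlap, against 5.1% of those genes, and Sema4d and Plxna3 overlapped. By level, 9 of the 17 averaged below 0.1 FPKM. Sema5a, a transmembrane semaphorin with thrombospondin repeats, was at 0.167 to 0.339 FPKM in KO and 0.296 to 0.403 in WT. Its relative Sema5b stayed below 0.05 FPKM, Sema4g below 0.1 FPKM and Sema4f at 0.0637 to 0.122 FPKM in KO and 0.0586 to 0.262 in WT.

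Other genes of the pathway were taken from 4 lists, of which 48 genes were tested and 0 passed an adjusted p of 0.05 by limma. At an unadjusted p under 0.05, 25 of the 48 were lower in KO and 0 higher, where 24.8% of all tested genes were lower and 1.01% higher. After scaling these background shares were 8.61% lower and 9.05% higher, and the counts of each list stand against them. The scaled median log2 fold change was -0.34 for the VEGF list, -0.12 for the intracellular list, -0.23 for the proteases and 0.091 for the co-receptors. With the GC and length correction these medians were -0.19, -0.021, -0.12 and 0.075, against -0.0057 for all tested genes. Among VEGF family ligands and receptors that share neuropilins, 4 of 6 were lower at that threshold, and 2 of 6 after scaling, Pgf and Flt1. Pgf, placental growth factor, was at 19.7, 19.3 and 21.4 FPKM in KO libraries 1, 2 and 3, against 63.0, 34.1 and 34.7 FPKM in WT libraries 1, 2 and 3 (log2 fold change -1.05 ± 0.24 SE, -0.72 scaled, limma adjusted p = 0.151). The groups did not overlap, and KO values were nearly level. Its receptor gene Flt1 was at 11.2 ± 3.74 FPKM in KO and 20.8 ± 4.12 in WT, Vegfa at 117.6 ± 11.97 FPKM in KO and 180 ± 30.3 in WT, and the lymphatic receptor gene Flt4 at 2.43 ± 0.954 FPKM in KO and 4.23 ± 1.31 in WT (SD, n = 3 each).

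Of 28 tested genes that carry plexin and neuropilin signals inside the cell, 13 were lower at an unadjusted p under 0.05, against 24.8% of all tested genes. After scaling 5 were lower, against 8.61%, and 2 higher, a share no larger than the 9.05% of all tested genes. The 5 were Mical2, Mical3, Dpysl3, Farp1 and Limk1, and the 2 were Rras2 and Rap1a (Mical3, Rras2 and Rap1a are named here after their values were seen). Mical2, an enzyme that oxidises actin, was at 2.73, 2.16 and 1.78 FPKM in KO against 4.53, 3.84 and 4.34 FPKM in WT libraries (log2 fold change -0.81 ± 0.17 SE, -0.53 scaled, limma adjusted p = 0.151). Dpysl3, a collapsin response mediator, was at 1.06 ± 0.0447 FPKM in KO and 1.88 ± 0.315 in WT, Limk1, the kinase of cofilin, at 2.45 ± 0.561 FPKM in KO and 4.25 ± 0.558 in WT, and the exchange factor gene Farp1 at 1.79 ± 0.268 FPKM in KO and 3.25 ± 0.956 in WT (SD, n = 3 each). Of 8 tested proteases that process semaphorins or plexins, 6 were lower at that threshold and 3 after scaling, Furin, Pcsk6 and Adamts1. Furin, which cleaves class 3 semaphorins, was at 11.8 ± 2.01 FPKM in KO and 19.5 ± 5.35 in WT, and its relative Pcsk6 at 9.42 ± 1.04 FPKM in KO and 14.7 ± 1.92 in WT. The metalloproteinase genes Adamts1 and Mmp14 were at 14.8 ± 3.11 and 2.54 ± 0.364 FPKM in KO, and at 23.0 ± 1.89 and 4.32 ± 1.40 FPKM in WT (SD, n = 3 each). Of 6 tested co-receptors and other semaphorin receptors, 2 were lower at that threshold, Cspg4 (1.70 ± 0.747 FPKM in KO and 3.51 ± 0.589 in WT) and Itga1 (5.72 ± 1.22 FPKM in KO and 8.66 ± 0.639 in WT). After scaling 1 was lower, Cspg4, and 1 higher, Cd72, a receptor of Sema4d (0.615 ± 0.173 FPKM in KO and 0.393 ± 0.185 in WT, SD, n = 3 each). Met, a partner of B plexins, was at 7.41 ± 1.38 FPKM in KO and 8.88 ± 0.381 in WT.

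Many of these genes are expressed by vessel cells, and in whole tissue fewer cells of a type and less RNA per cell cannot be told apart. All 12 endothelial markers had negative fold changes as deposited (median -0.61), where 87.6% of all tested genes did. All 12 also did after scaling (median -0.28), where 50.4% of all tested genes did. At an unadjusted p under 0.05, 4 of the 12 were lower on either scale. The share of all tested genes lower at that threshold was 24.8% as deposited and 8.61% after scaling. Flt1 and Kdr are also in the VEGF list, Flt4 is also among the lymphatic markers and Cspg4 among those of pericytes. The 12 endothelial markers summed to 255, 159 and 156 FPKM in KO libraries 1, 2 and 3, against 427, 246 and 268 FPKM in WT libraries 1, 2 and 3. KO library 1 lay inside the WT range, as it did for every tested member whose groups overlapped as deposited. For the tested members without overlap it lay below every WT library. The defining markers Cdh5 and Pecam1 were at 39.4 ± 5.40 and 28.3 ± 5.39 FPKM in KO and 77.2 ± 25.1 and 45.6 ± 13.4 in WT (SD, n = 3 each). Pericyte and smooth muscle markers had 8 of 9 below 0, where 87.6% of all tested genes were, and summed to 47.2 to 79.3 FPKM in KO and 83.9 to 96.3 in WT. After scaling these sums overlapped, at 56.5 to 79.3 in KO and 72.6 to 84.2 in WT. At an unadjusted limma p under 0.05, 6 of 9 were lower and 0 higher as deposited, against 24.8% and 1.01% of all tested genes. After scaling 1 of 9, Cspg4, was lower and 1, Cnn1, higher, against 8.61% and 9.05%. Fibroblast markers also had 8 of 9 below 0 as deposited, and 6 of 9 after scaling, where 50.4% of all tested genes were. Their sums were 80.6 to 102 FPKM in KO and 114 to 180 in WT, and overlapped after scaling, at 96.6 to 114 in KO and 85.7 to 172 in WT. At the same threshold 4 of 9 were lower and 0 higher as deposited. After scaling 3 of 9 were lower, all of them collagen genes, and 1, Dcn, was higher. The collagen genes Col1a1, Col1a2 and Col3a1 summed to 17.7 to 29.8 FPKM in KO and 44.7 to 99.2 in WT, and the other 6 fibroblast markers to 62.9 to 72.3 FPKM in KO and 68.9 to 81.2 in WT, with overlap. Lymphatic markers summed to 4.42 to 6.21 FPKM in KO and 6.59 to 9.33 in WT (2 of 3 tested below 0). After scaling these sums overlapped, at 5.22 to 6.50 in KO and 6.48 to 7.04 in WT. Of the 3 tested, 1, Lyve1, was then higher in KO at an unadjusted limma p under 0.05, against 9.05% of all tested genes. Macrophage markers summed to 77.3 to 86.9 FPKM in KO and 52.4 to 125.5 in WT (3 of 9 below 0 as deposited, 2 of 9 after scaling). Schwann cell markers summed to 67.7 to 74.8 FPKM in KO and 73.2 to 116.7 in WT (3 of 5 below 0 as deposited, 2 of 5 after scaling). Of all tested genes 87.6% and 50.4% were below 0 on these scales. After scaling C1qa and S100b, 1 gene of each list, were higher at an unadjusted limma p under 0.05, against 9.05% of all tested genes. In both lists 0 were lower, against 8.61%. Of the neuron list none reached the minimum, Th and Dbh were listed at 0 in every library, and the sums were 0.40 to 0.68 FPKM in KO and 0.75 to 0.99 in WT. T cell markers summed to 1.26 to 3.002 FPKM in KO and 1.005 to 3.18 in WT, and B cell markers to 0.34 to 0.47 FPKM in KO and 0.52 to 1.12 in WT, with none tested. The 11 brown adipocyte markers summed to 14822 to 17004 FPKM in KO and 14173 to 17196 in WT, with 7 of 11 below 0 as deposited. Most of each sum was Fabp4, at 9521 to 10911 FPKM in KO and 8987 to 11554 in WT. After scaling the sums of the 11 markers were 16989, 17500 and 18992 in KO libraries 1, 2 and 3, against 12967, 13926 and 13921 in WT libraries 1, 2 and 3. Every KO sum then lay above every WT sum. On that scale 3 of 11 were below 0, 4 were higher in KO at an unadjusted p under 0.05, against 9.05% of all tested genes, and 1 was lower, against 8.61%. All 10 muscle markers had positive fold changes, with the sums given above. With the GC and length correction the median log2 fold change was -0.22 for endothelial, -0.20 for pericyte and smooth muscle and -0.045 for fibroblast markers. It was -0.17 for lymphatic, 0.26 for macrophage, -0.053 for Schwann cell, 0.17 for brown adipocyte and 3.29 for muscle markers, against -0.0057 for all tested genes. The part of these cell types in the semaphorin, plexin and neuropilin values was not tested.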

How the data were processed

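PolyA RNA libraries of brown adipose tissue (3 AdIl17rc KO, 3 WT, grouped and numbered by the labels' titles) were analysed from 1 table of FPKM values that the authors deposited, with 24043 rows. STAR 2.5.1b, Cufflinks 2.2.1, DESeq2 1.10.1 and build mm9 are named in the submitters' processing notes. Annotation, strand setting and multi-mapping: not given in the sources used here. For 27 rows the symbol had become a date, and these were left out. The members and gene lists were chosen with earlier results of these data known.

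Values were tested as log2(FPKM + 0.5) for 10864 genes with a mean of at least 0.5 FPKM, with limma 3.58.1 in R 4.3.3 (2 genotypes, mean-variance trend, two-sided). Benjamini-Hochberg adjustment ran over all these genes, at a threshold of 0.05. Fold changes on this scale understate the change of low genes. Median-of-ratios factors were 1.00, 0.847 and 0.834 for KO and 1.33, 1.02 and 1.05 for WT libraries 1, 2 and 3. The GC and length correction fitted splines with 4 degrees of freedom each per library, on the longest GENCODE M21 transcript (GRCm38), which 99.4% of tested genes had. The fit was run on simulated data with independent normal errors and planted changes. These held no shift of the median gene, GC trend or outlying library, so the simulation does not bear on those features. Approximate depth limits low members: the least covered tested member, Sema3b, rests on some 57 to 136 fragments per library, counting error only. Members were named by level, p and overlap of groups, and up to 4 genes per other pathway list by smallest p. Alternatives were other pseudocounts, filters and scalings, a replicate block, robust limma and each library left out.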

Additional observations from a re-analysis of the deposited data

How the results depend on the processing

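Across 25 alternatives as fitted, 0 of the tested members were called in either direction by limma at an adjusted p under 0.05, except that rescaling each library to a common FPKM sum called 3 lower: Sema3f (adjusted p = 0.0256), Plxna1 (0.0288) and Nrp2 (0.0351). That sum includes Mir6236, which stood at 146487 FPKM in KO library 2 and 7499 to 19970.5 FPKM in the others. With Mir6236 left out of the sum, an alternative chosen after seeing the data, 0 were called. Robust limma gave 8 lower at an unadjusted p under 0.05, as in the fit reported. The median log2 fold change of the members, -0.57, was -0.10 after scaling with GC and length correction, with or without a replicate block. Leaving out 1 library in turn gave -0.88 to -0.42 as deposited and -0.50 to -0.17 scaled (-0.19 without KO library 3 and -0.23 without WT library 1), and 6 to 12 of 16 lower at an unadjusted p under 0.05 as deposited, against 10.7% to 35.2% of all genes (4 to 10 scaled, against 4.84% to 11.6%). The count was 12 without KO library 1.

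Plxdc2 changed sign with median-of-ratios scaling (0.071, also with a replicate block), upper-quartile scaling (0.058), GC and length correction (0.014, also with the block), the common sum without Mir6236 (0.0025) and scaling without KO library 1, 2 or 3 (0.035, 0.081 and 0.095) or WT library 2 or 3 (0.11 and 0.17). With the GC and length correction, with or without the block, Plxnb2 (0.093), Sema3b (0.096) and Sema6b (0.022) turned. Sema3b also turned with scaling without KO library 3 (0.078) or WT library 2 (0.021). The other 12 members kept a negative sign under every alternative that fitted them.

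Same-numbered libraries are not shown to be pairs: with group means removed, KO and WT libraries 1, 2 and 3 correlated at 0.10, -0.12 and -0.081. A replicate block gave 14 of 16 lower at an unadjusted p under 0.05, where 41.4% of all genes were. With scaling it gave 7, against 9.07%.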
